A study of Mus musculus with 10 samples.

Results

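The 7 genes followed here, Ly6c2, Ccr2, Plac8, Fn1, Vcan, F13a1 and Ms4a4c, are used as markers of recently arrived classical monocytes. They were measured in RNA sequencing of macrophages sorted from the small intestine of mice after experimental stroke. The genes were chosen by name, as genes used to mark monocytes newly come from the blood, and several are also transcribed by other cells. All 7 were found among the 17279 genes of the table and among the 16949 that passed the filter on low counts. The groups were sham-operated mice (n = 5 libraries) and mice with permanent occlusion of the middle cerebral artery (pMCAO, n = 5 libraries), both collected 24 h after surgery and both with the genotype label C57BL6/J. The cells were lamina propria macrophages gated on CX3CR1-GFP from the peeled mucosa of the whole small intestine, so both groups carried a green fluorescent reporter of the fractalkine receptor gene, although the genotype label does not name the allele. The names of replicate 1 in each group mark it as a pool, and the labels do not say how many mice it held. Pooling cannot be told apart from replicate number 1.

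Macrophages of the intestinal lamina propria are in large part renewed from the blood. Classical monocytes leave the bone marrow and enter the tissue through the chemokine receptor CCR2 while carrying the surface protein Ly6C, and then lose Ly6C and gain MHC class II and CX3CR1 as they mature into macrophages. A gate on CX3CR1-GFP takes mature macrophages at high GFP and can take monocytes at lower GFP, and dendritic cells too. In bulk libraries such as these, fewer cells of a type and less RNA per cell cannot be told apart.

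None of the 7 genes was called as changed after pMCAO. At a false discovery rate (FDR) of at most 0.05 over all genes tested, edgeR's quasi-likelihood test called 0 of the 7 members and 0 of 16949 genes (0%), the smallest FDR being 0.922, and DESeq2 called 3 genes, with none of the members among them. At an unadjusted p under 0.05, edgeR's test had 2 of the 7 members, Plac8 and Vcan, both with lower fitted values after pMCAO, against 799 of all genes (4.71%), of which 416 were lower (2.45%) and 383 higher (2.26%). Fitted values were lower after pMCAO for 4 members and higher for 3, where 8582 of all genes (50.6%) were lower. The median log2 fold change of the members was −0.30, and that of all genes tested was −0.0059. Without sham replicate 2 the members' median turned to 0.16, and the number of lower members was between 3 and 6 over the fits that left out single libraries. The groups did not overlap in 0 of the 7 members and in 167 of all genes (0.985%), 91 of them lower (0.537%) and 76 higher (0.448%).

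The sham libraries held 18894151 to 60665972 counts (median 33913980) and the pMCAO libraries 6430643 to 28672285 (median 11605371), and the lowest member count, 12 for Vcan, came from the pMCAO group. Immunoglobulin genes, which are transcribed by B and plasma cells, made up 0.586% to 16.3% of all counts in sham libraries and 0.914% to 19.2% in pMCAO libraries. Sham replicate 5 (1756 CPM) and pMCAO replicate 4 (4461 CPM) held Xist, an RNA that coats the silenced X chromosome in female cells, and the other 8 libraries held 1.39 to 4.92 CPM. CPM are counts scaled to the size of the library. Values below are CPM after TMM scaling, and fold changes are log2 ratios of pMCAO to sham with their standard error (SE).

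The sorted cells carried macrophage transcripts throughout. Among 12 genes shared by macrophages, C1qb was at 2066 ± 737 CPM in sham and 2048 ± 627 CPM in pMCAO (SD, n = 5 each), and Csf1r, the receptor of the macrophage growth factor, at 1028 ± 326 CPM in sham and 1283 ± 338 CPM in pMCAO. The summed level of the 12 genes ran from 3622 to 10769 CPM in sham and from 5205 to 11585 CPM in pMCAO. Other cells were also represented. The mast cell list of 6 genes summed to between 2169 and 20612 CPM in sham and between 464 and 6800 CPM in pMCAO, led by the mucosal mast cell proteases Mcpt1 and Mcpt2, and the T cell list of 11 genes to between 73.6 and 955 CPM in sham and between 50.2 and 427 CPM in pMCAO. Of 10 neutrophil genes, the granule and surface markers S100a9, Mpo, Elane, Ly6g, Cxcr2 and Ltf are not in the table analysed here, 2 others did not pass the filter, and the remaining 2, Retnlg and Mmp8, summed to at most 12.6 CPM in any library.

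Ly6c2 encodes one of the proteins that antibodies to Ly6C detect, the marker by which classical monocytes are usually recognised. Ly6C is also carried by some T cells and plasma cells. The gene lies on the minus strand of chromosome 15 (GRCm38, chr15:75108158-75111970), and its neighbour Ly6c1 has a nearly identical coding sequence. Reads that fall wholly where both sequences are the same cannot be assigned to one gene. The first 120 bases of both coding sequences, from the GENCODE M21 annotation, are shown because they hold 6 of the 9 positions that differ. Capitals mark these 6 positions.
Ly6c2: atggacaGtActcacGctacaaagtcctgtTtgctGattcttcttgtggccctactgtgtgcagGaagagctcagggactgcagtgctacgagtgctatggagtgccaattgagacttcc
Ly6c1: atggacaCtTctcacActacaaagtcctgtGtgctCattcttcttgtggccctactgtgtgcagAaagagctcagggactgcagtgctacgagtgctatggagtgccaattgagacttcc

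The whole coding sequences, of 396 bases each, differed at 9 positions and were 97.7% identical, with an identical stretch of 188 bases. Of the 723 windows of 100 bases in the Ly6c2 transcript, the read length used, 114 (15.8%) also occurred in Ly6c1. Ly6c1, which is known from endothelial cells and lymphocytes, was between 0 and 2.05 CPM in these libraries. The Ly6c2 values are therefore uncertain to the extent that reads were split between both genes, and the handling of reads with several matches is not given in the sources used here. Ms4a4c shared 28 of 1624 windows (1.72%) with Ms4a4b, and Plac8, Fn1, Vcan and F13a1 shared 0 with any annotated gene. Exons of Fn1, F13a1 and Ms4a4c overlap a gene on the other strand, and whether counting used the strand is not given in the sources used here.

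Ly6c2 was the most variable member. In sham replicates 1 to 5 it was at 49.1, 113, 26.4, 7.36 and 50.7 CPM, and in pMCAO replicates 1 to 5 at 20.2, 150, 2.93, 15.2 and 65.5 CPM. The highest library of each group was its replicate 2, and both the highest and the lowest of the 10 libraries were pMCAO, so the groups overlapped over nearly the whole range. The log2 fold change was 0.049 (SE 0.85, 95% interval −1.80 to 1.90, FDR 0.999 by edgeR's test), so that the interval spans fold changes in both directions. When single libraries were left out, the log2 fold change lay between −0.92 (without pMCAO replicate 2) and 0.61 (without sham replicate 2).

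Ccr2, the receptor through which monocytes leave the marrow and enter tissue, was, with Plac8, the highest member per length and had the smallest ratio between its extreme libraries. It lies on chromosome 9 (chr9:124101950-124113557, plus strand). Its levels in sham replicates 1 to 5 were 712, 1403, 849, 416 and 572 CPM, and those in pMCAO replicates 1 to 5 were 1188, 1058, 519, 649 and 945 CPM. Every pMCAO library lay within the range of the sham libraries. After pMCAO the log2 fold change was 0.14 (SE 0.32, 95% interval −0.56 to 0.85, FDR 0.970 by edgeR's test), and it fell to −0.031 without both pooled libraries.

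**Figure D1:**
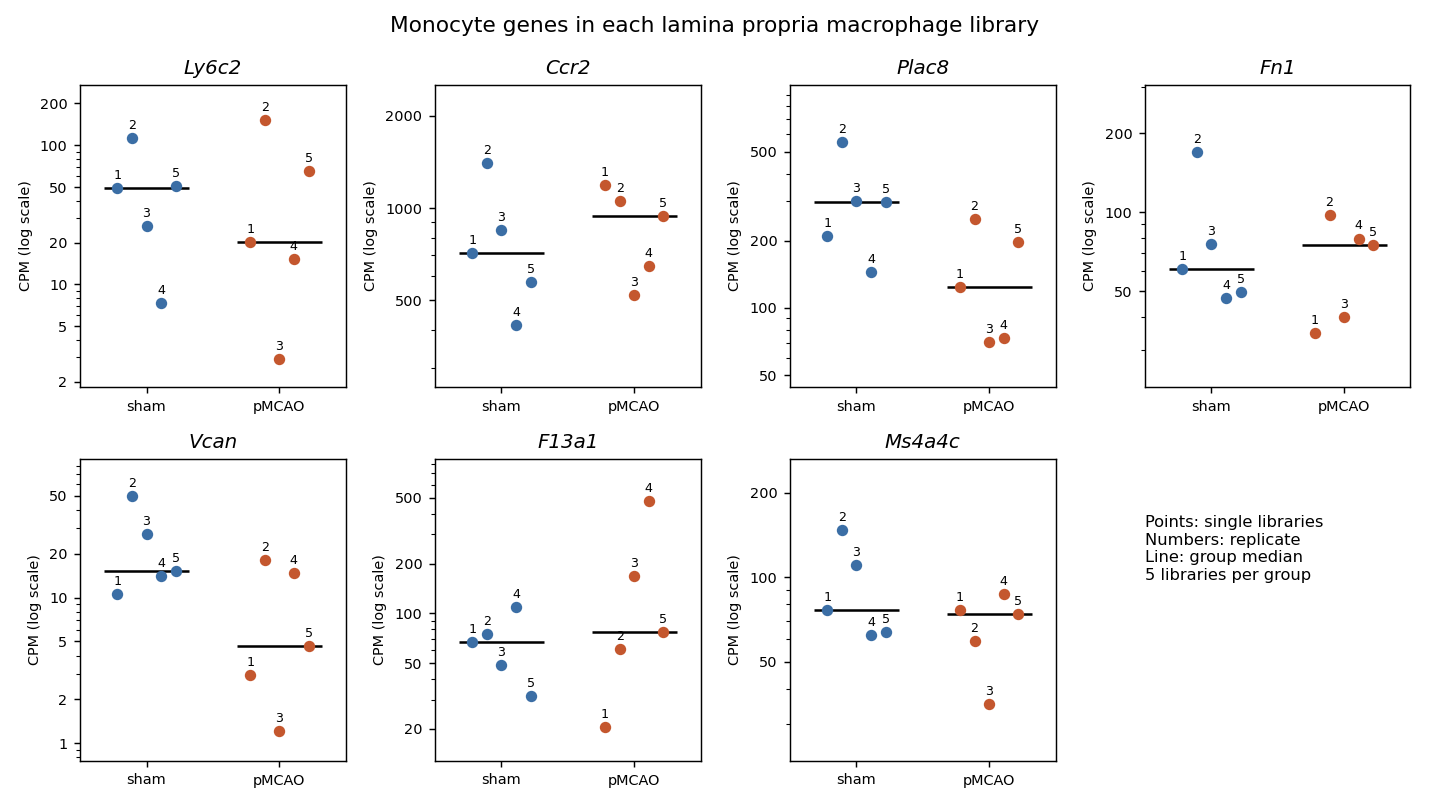
CPM of the 7 genes (TMM-scaled, log axis) in each sham and pMCAO library, with a point per library, the replicate number beside it and a line at the group median. The groups overlap for every gene, 3 of the 5 pMCAO points lie under all sham points for Plac8 and for Vcan, and pMCAO replicate 4 stands highest for F13a1 at 478 CPM.

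Plac8, a small cysteine-rich protein abundant in monocytes and also made by plasmacytoid dendritic cells and lymphocytes, had the smallest p of the members. It is on chromosome 5 (chr5:100553725-100572245, minus strand). Plac8 was at 209, 554, 302, 145 and 299 CPM in sham replicates 1 to 5 and at 124, 249, 70.7, 73.1 and 198 CPM in pMCAO replicates 1 to 5. All 5 pMCAO libraries were below the sham median of 299 CPM and 3 were below the lowest sham library, while 2 lay within the sham range. The log2 fold change was −1.08 (SE 0.41, 95% interval −1.98 to −0.18), with an unadjusted p of 0.0227 in edgeR's test, and it did not pass over all genes (FDR 0.922). It was −0.74 without sham replicate 2, its highest library, and −0.92 without both libraries with high Xist.

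The level of Plac8 also moved with measures of the libraries. Over the 10 libraries its log2 CPM correlated with log2 total counts (Pearson's r = 0.79, permutation p = 0.00620, adjusted p = 0.0891; Spearman's rho = 0.903, permutation p = 0.00076, adjusted p = 0.0479). Without the 2 libraries with totals farthest from the median, r was 0.811, and with the group means removed it was 0.645. With the summed T cell list r was 0.787 (permutation p = 0.00707, adjusted p = 0.0891) and rho was 0.855 (permutation p = 0.00262, adjusted p = 0.0825), and r was 0.770 without the 2 farthest libraries. With the mast cell list r was 0.775 (permutation p = 0.00865, adjusted p = 0.0908) and rho was 0.745 (permutation p = 0.0167, adjusted p = 0.182), and r was 0.687 without the 2 farthest libraries. Of the T cell list 11 of 11 genes and of the mast cell list 6 of 6 had lower fitted values after pMCAO, 0 of them called, with median log2 fold changes of −0.87 and −1.40. Without sham replicate 5 these medians were −0.50, with 9 of the 11 T cell genes lower, and −0.81, and without both libraries with high Xist they were −0.38, with 9 of 11 lower, and −0.61, with 5 of 6 lower. For Ly6c2 the T cell list gave r = 0.802 (permutation p = 0.00580, adjusted p = 0.0891; rho = 0.758, permutation p = 0.0154, adjusted p = 0.182), with r = 0.402 without the 2 farthest libraries. With log2 total counts Vcan had r = 0.635 (permutation p = 0.0468, adjusted p = 0.288; rho = 0.745, permutation p = 0.0173, adjusted p = 0.182). For Vcan that r was 0.188 without the 2 farthest libraries and 0.387 with the group means removed. Ly6c2 had r = 0.608 with total counts (permutation p = 0.0625, adjusted p = 0.288). The part of depth and of these cells in the Plac8, Vcan and Ly6c2 values was not tested.

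Fn1 and Vcan encode matrix proteins that classical monocytes transcribe. Fibronectin, the Fn1 product, binds integrins on the cell surface. Fn1 (chr1:71585520-71653200, minus strand) was at 61.0, 169, 75.8, 47.2 and 49.5 CPM in sham replicates 1 to 5 and at 34.6, 97.9, 39.9, 79.4 and 74.8 CPM in pMCAO replicates 1 to 5. In 2 pMCAO libraries Fn1 was below every sham value, and sham replicate 2 was far above the next sham library. Its log2 fold change was −0.30 (SE 0.39, 95% interval −1.14 to 0.54, FDR 0.945 by edgeR's test), and it turned to 0.16 without sham replicate 2.

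Versican, the Vcan product, is a large chondroitin sulphate proteoglycan. Vcan (chr13:89655312-89742509, minus strand) had the lowest level of the members per length, at 10.6, 49.8, 27.4, 14.1 and 15.2 CPM in sham replicates 1 to 5 and at 2.93, 18.1, 1.21, 14.8 and 4.68 CPM in pMCAO replicates 1 to 5. In 3 pMCAO libraries Vcan was below every sham value, and pMCAO replicates 2 and 4 lay among the sham values. For Vcan the log2 fold change was −1.47 (SE 0.66, 95% interval −2.91 to −0.039, unadjusted p = 0.0450 and FDR 0.922 in edgeR's test). It ranged from −1.98 to −1.0 when single libraries were left out, and without sham replicate 2 the unadjusted p was 0.153. The levels of pMCAO replicates 1 and 3 rested on only 20 and 12 counts.

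Ms4a4c, a four-pass membrane protein of monocytes and lymphocytes, was the member with the smallest spread within groups. It lies on chromosome 19 (chr19:11404770-11427246, plus strand). It was at 76.5, 147, 111, 62.1 and 64.0 CPM in sham replicates 1 to 5 and at 76.1, 59.4, 35.4, 87.1 and 74.2 CPM in pMCAO replicates 1 to 5. The group medians, 76.5 and 74.2 CPM, were close, and sham replicates 2 and 3 stood above all pMCAO libraries. The log2 fold change was −0.47 (SE 0.29, 95% interval −1.10 to 0.16, FDR 0.922 by edgeR's test). Of its 10 relatives of the Ms4a family in the list, 4 had lower and 6 higher fitted values and 0 were called, while without pMCAO replicate 4 there were 9 lower and 1 higher. Among them Ms4a6b, the highest in CPM, was at 411 ± 78.2 CPM in sham and 447 ± 129 CPM in pMCAO (SD, n = 5 each).

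F13a1 encodes the A chain of coagulation factor XIII, which crosslinks fibrin and is made by monocytes as well as by several kinds of tissue macrophage. It lies on chromosome 13 (chr13:36867178-37050244, minus strand). F13a1 was at 66.8, 75.1, 48.7, 109 and 31.5 CPM in sham replicates 1 to 5 and at 20.5, 61.0, 169, 478 and 77.6 CPM in pMCAO replicates 1 to 5. In the pMCAO group replicates 3 and 4 stood above every sham library and replicate 1 below every sham library, so the spread between pMCAO libraries was wider than the distance between the group medians of 66.8 and 77.6 CPM. In edgeR's fit the log2 fold change was 1.28 (SE 0.66, 95% interval −0.16 to 2.72, unadjusted p = 0.0763 and FDR 0.922 by that test). It was 0.30 without pMCAO replicate 4 and 0.13 without both libraries with high Xist, and 1.57 without both pooled libraries.

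**Figure D2:**
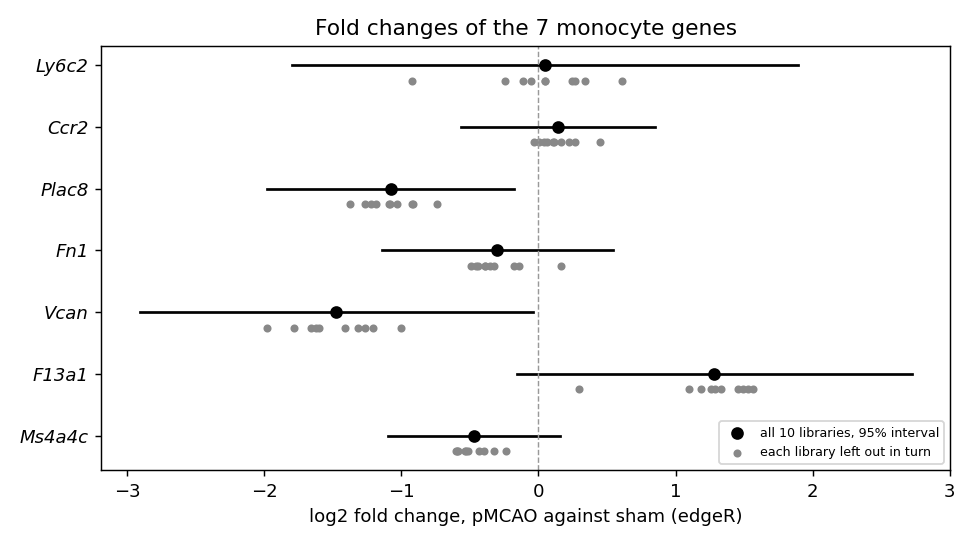
Log2 fold changes of pMCAO against sham for the 7 genes (horizontal axis), with black points and 95% intervals from edgeR over all 10 libraries and grey points for each fit that left out 1 library. The intervals of Plac8 and Vcan end at −0.18 and −0.039, the other 5 include 0, and the F13a1 value falls to 0.30 without pMCAO replicate 4.

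Per length of merged exons, the order of median levels in the sham group was Plac8 (188 CPM per kb), Ccr2 (105), Ms4a4c (43.7), Ly6c2 (17.9), F13a1 (9.91), Fn1 (5.22) and Vcan (1.05). Compared within each sham library, every neighbour in this order kept its place in 5 of 5 libraries except Ly6c2 above F13a1 and F13a1 above Fn1, which held in 4 of 5. The ranges over sham libraries overlapped between all neighbours other than Fn1 (4.04 to 14.5 CPM per kb) and Vcan (0.736 to 3.44). In the pMCAO group Ccr2 was first (140 CPM per kb) and Plac8 second (77.7), followed by Ms4a4c (42.4), F13a1 (11.5), Ly6c2 (7.38), Fn1 (6.40) and Vcan (0.323). There Ccr2 was above Plac8, and Fn1 above Vcan, in 5 of 5 libraries, Plac8 above Ms4a4c in 4, Ms4a4c above F13a1 and Ly6c2 above Fn1 in 3, and F13a1 above Ly6c2 in 2. The place of Ly6c2 depended on the length used. Per kb of its longest coding transcript, which is much shorter than its merged exons, the sham median of Ly6c2 was 59.8 CPM per kb, above that of Ms4a4c at 44.4.

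The spread between replicates, given as the biological coefficient of variation of edgeR, was 0.890 for Ly6c2, 0.708 for Vcan and 0.703 for F13a1, against a median of 0.432 over all genes tested. It was 0.469 for Plac8, 0.450 for Fn1, 0.385 for Ccr2 and 0.354 for Ms4a4c. Ly6c2 was more variable than 84.6% of the genes, and its highest library held 51.3 times its lowest. For Vcan that ratio was 41.0 and for F13a1 it was 23.3, while for Ccr2 it was 3.37.

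Over all 10 libraries, 6 of the members tended to vary in one direction and F13a1 apart from them, though some pairs depended on 2 libraries. F13a1 was set apart after the values were seen. Pearson's r of log2 CPM was positive in all 15 pairs of the other 6 members, from 0.256 to 0.784 with a median of 0.633, and positive in 1 of the 6 pairs with F13a1, which ran from −0.54 to 0.208. None of the 21 pairs passed after Benjamini-Hochberg adjustment of the permutation p over the pairs (smallest adjusted p = 0.0908 for r and 0.0927 for rho). The highest r was that of Ly6c2 with Plac8 (r = 0.784, permutation p = 0.00785; rho = 0.745, permutation p = 0.0180, adjusted p = 0.126), which was 0.720 without the 2 libraries farthest from the median of Ly6c2 and 0.893 with the group means removed. Fn1 with Vcan had r = 0.749 (permutation p = 0.0130; rho = 0.794, permutation p = 0.00883, adjusted p = 0.0927), and r was 0.548 without the 2 farthest libraries. Other pairs changed more in this check, in which the 2 libraries farthest from the median of the first gene named were left out. Ly6c2 with Ms4a4c went from 0.543 to −0.056, Ccr2 with Vcan from 0.256 to 0.113 and Ccr2 with Fn1 from 0.557 to 0.200. Plac8 with Fn1 went the other way, from 0.632 to 0.842. The points share their library, its depth and its mixture of cells.

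Most members had their extreme values in the same libraries. Sham replicate 2 was the highest sham library for Ly6c2, Ccr2, Plac8, Fn1, Vcan and Ms4a4c, and pMCAO replicate 3 was the lowest pMCAO library for Ly6c2, Ccr2, Plac8, Vcan and Ms4a4c. The 7 members summed to 2511 CPM in sham replicate 2, the highest library, and to 838 CPM in pMCAO replicate 3. The lowest sum, 802 CPM, was that of sham replicate 4. Ccr2 made up a large share of these sums. The genes whose level over the 10 libraries was most like the mean of the 7 members, each scaled to the same spread, were Cd48 (r = 0.960), which encodes an adhesion protein of leukocytes, Bahcc1 (0.949), Mrpl13 (0.941), Gm12312 (0.938) and Tshz1 (0.928). They are a description of likeness over 10 libraries, picked from all genes tested.

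**Figure D3:**
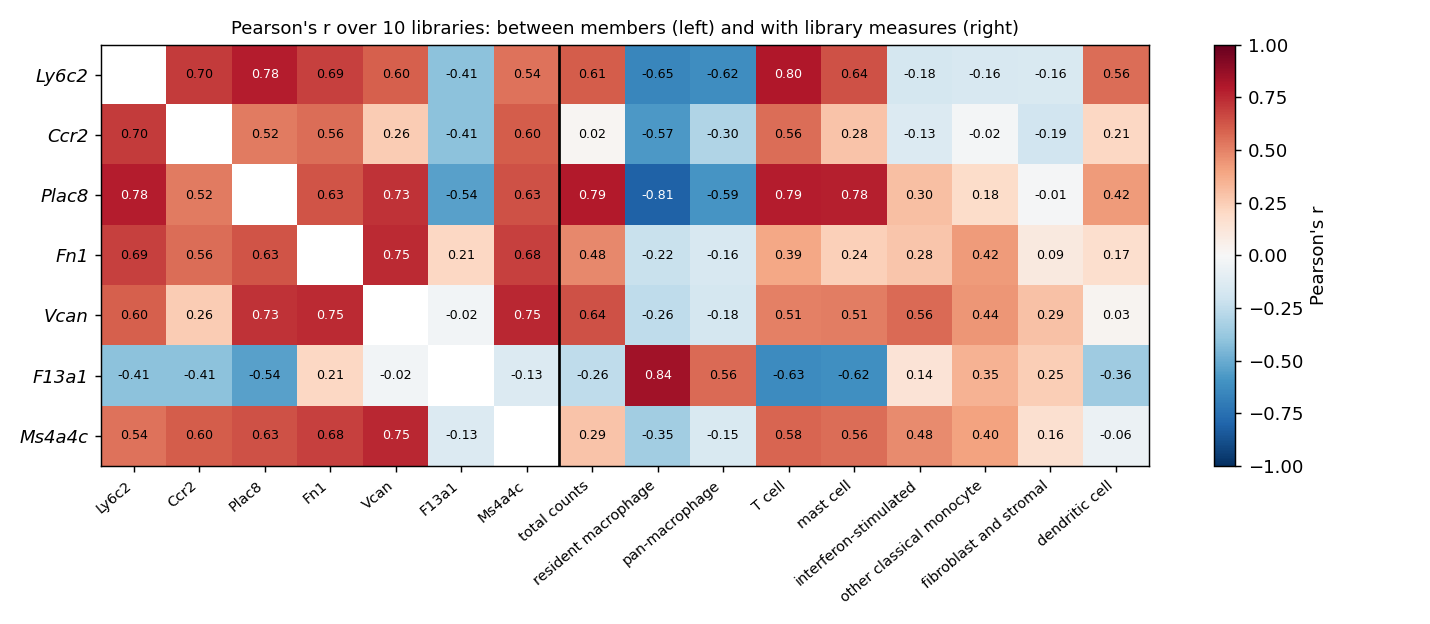
Pearson's r over the 10 libraries between the log2 CPM of the 7 genes (left of the line) and of each gene with 9 measures of the libraries (right of the line, log2 of total counts or of the summed CPM of a gene list), from −1 (blue) to 1 (red). The row and column of F13a1 are mostly blue where those of the other 6 genes are red, and with the resident macrophage list the signs are the other way round.

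Ly6c2 was low and high in the same libraries as immunoglobulin RNA. The share of counts from immunoglobulin genes fell into separate sets, 3 libraries between 0.586% and 0.938%, 5 between 4.56% and 6.36% and 2 between 16.3% and 19.2%, so no correlation over all 10 was computed, and within sets of fewer than 6 libraries a relation cannot be tested. The 3 libraries with the smallest share, sham replicate 4 and pMCAO replicates 3 and 4, were the 3 lowest for Ly6c2, at 7.36, 2.93 and 15.2 CPM. The 2 libraries with the largest share, replicate 2 of each group, were the 2 highest for Ly6c2, at 113 and 150 CPM. For Ccr2, 2 of those 3 libraries were among its 3 lowest and 1 of those 2 among its 2 highest, for Fn1 2 of 3 and 2 of 2, for Plac8 and Ms4a4c 2 of 3 and 1 of 2, for Vcan 1 of 3 and 1 of 2, and for F13a1 0 of 3 and 0 of 2. With immunoglobulin genes left out of the library sizes, the log2 fold change of Ly6c2 was 0.034 and 0 members were called, as in the main fit. That setting only rescales the libraries, so it cannot show whether Ly6c2 reads came from such cells. The part of B and plasma cell RNA in the Ly6c2 values was not tested.

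F13a1 was highest where the summed level of 8 genes of long-lived tissue macrophages was highest, though not every gene of that list followed. The 3 libraries with the largest summed CPM of 8 resident macrophage genes (Timd4, Cd4, Cd163, Folr2, Lyve1, Vsig4, Cbr2 and Gas6), pMCAO replicates 3 and 4 and sham replicate 4, were also the 3 highest for F13a1. Over the 10 libraries the log2 CPM of F13a1 and of the list were positively correlated (r = 0.839, permutation p = 0.00219, adjusted p = 0.0891; rho = 0.733, permutation p = 0.0205, adjusted p = 0.184). This relation did not pass after adjustment over the 63 relations of the members with 9 library measures, and r was 0.639 without the 2 farthest libraries and 0.610 without both libraries with high Xist. The list summed to between 270 and 1100 CPM in sham and between 430 and 1963 CPM in pMCAO, and pMCAO replicate 4 was highest for both the list and F13a1. In that library Cd163 alone was at 1265 CPM of the list's 1963. Plac8 ran opposite to the same list (r = −0.81, permutation p = 0.00479, adjusted p = 0.0891; rho = −0.64, permutation p = 0.0544, adjusted p = 0.316), with r = −0.76 without the 2 farthest libraries. The genes most like F13a1 over the libraries were Ednrb (r = 0.968), Tamm41 (0.939), Myh11 (0.930), Cbr2 (0.919) and Adam15 (0.899). Of these, Cbr2 is itself in the resident macrophage list, and the others are not. Ednrb and Myh11 had low mean levels, 4.60 and 4.93 CPM, and all were picked from all genes tested. Of the 63 relations, the only one with an adjusted p of at most 0.05, in rho alone, was that of Plac8 with total counts. The library measures were chosen after values had been seen.

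**Figure D4:**
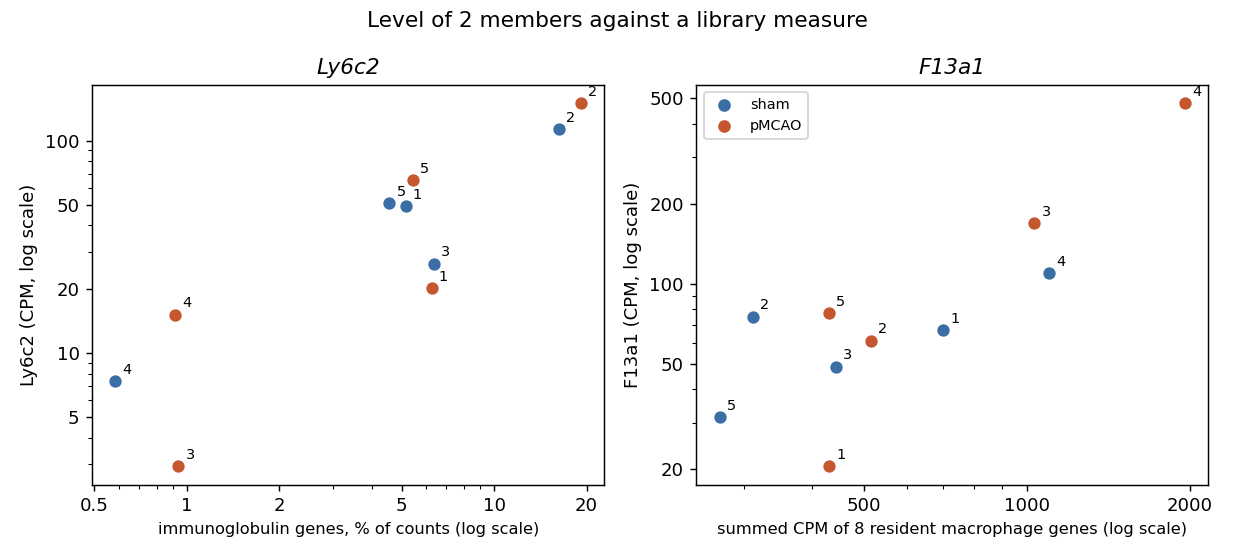
Left, Ly6c2 (CPM) against the share of counts from immunoglobulin genes (%), and right, F13a1 (CPM) against the summed CPM of 8 resident macrophage genes, for each sham and pMCAO library with its replicate number (all axes are log scales). Ly6c2 is lowest in the 3 libraries with the smallest share and highest in the 2 with the largest, and pMCAO replicate 4 is highest on both axes of the right panel.

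In the 8 resident macrophage genes, 2 had lower and 6 higher fitted values after pMCAO, with a median log2 fold change of 1.09 and 0 called. That median was 0.21 without pMCAO replicate 4, and without both libraries with high Xist it was −0.020, with 4 lower and 4 higher. Cd163, a scavenger receptor for haemoglobin, was at 248 ± 205 CPM in sham and 499 ± 447 CPM in pMCAO (SD, n = 5 each), with a log2 fold change of 1.01 (SE 0.62, FDR 0.922 by edgeR's test), which was 0.31 without pMCAO replicate 4 and 0.11 without both libraries with high Xist. Timd4, a receptor for phosphatidylserine, was at 37.3 ± 33.8 CPM in sham and 37.1 ± 18.8 CPM in pMCAO. The MHC class II genes that monocytes gain as they mature had fitted values below 0 in 5 of 5, with a median of −0.10 and 0 called, but in 2 of 5 without sham replicate 4, and Cd74, the invariant chain, was at 5860 ± 1630 CPM in sham and 5818 ± 1226 CPM in pMCAO.

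The other genes of classical monocytes had log2 fold changes from −1.71 to 0.17, and those of the members ran from −1.47 to 1.28. Of 20 further genes in the list, all tested, 17 had lower and 3 higher fitted values after pMCAO, with a median log2 fold change of −0.38, 0 called and 2 with an unadjusted p under 0.05, and 13 to 18 were lower when single libraries were left out. Lyz2, which encodes lysozyme and had the highest CPM of the list, was at 7469 ± 1835 CPM in sham and 5975 ± 1527 CPM in pMCAO (log2 fold change −0.32, SE 0.26, FDR 0.922 by edgeR's test). Itgam, the integrin chain CD11b, was at 642 ± 211 CPM in sham and 723 ± 146 CPM in pMCAO, and Ccr1, a receptor for inflammatory chemokines, at 377 ± 195 CPM in sham and 317 ± 67.5 CPM in pMCAO. By edgeR's quasi-likelihood test the unadjusted p was 0.0124 for Clec4e (log2 fold change −1.71, FDR 0.922) and 0.0467 for Gda (log2 fold change −0.56, FDR 0.922), which were named after their values were seen. Over the 10 libraries, the summed level of this list, most of which was Lyz2, gave r = −0.16 with Ly6c2 (permutation p = 0.649, adjusted p = 0.769; rho = −0.14, permutation p = 0.708, adjusted p = 0.826), and r was −0.13 without the 2 farthest libraries. With Ccr2 r was −0.021 (permutation p = 0.953, adjusted p = 0.978) and rho was −0.042 (permutation p = 0.918, adjusted p = 0.948), and r was 0.366 without the 2 farthest libraries.

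The chemokines that bind CCR2 had lower fitted values in 4 of 4 tested genes, with a median log2 fold change of −0.69 and 0 called. Ccl7 was at 296 ± 252 CPM in sham and 104 ± 75.0 CPM in pMCAO (SD, n = 5 each), with a log2 fold change of −1.51 (unadjusted p = 0.0313, FDR 0.922 in edgeR's test). Ccl2 was at 144 ± 94.3 CPM in sham and 91.3 ± 26.3 CPM in pMCAO (log2 fold change −0.66, FDR 0.922 by edgeR's test). Without sham replicate 4, which was highest for both, the log2 fold change was −0.91 for Ccl7 and −0.22 for Ccl2. The ligands summed to between 173 and 1236 CPM in sham and between 145 and 561 CPM in pMCAO, so the groups overlapped. The decoy receptors Ackr1 and Ackr2 are not in the table analysed here.

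Partners of the matrix proteins had fitted values on both sides. Of 9 receptors and partners tested, 5 were lower and 4 higher after pMCAO, with a median of −0.0021 and 0 called. Itga4, a fibronectin-binding integrin chain, was at 721 ± 116 CPM in sham and 844 ± 185 CPM in pMCAO, and Cd44, a receptor that binds hyaluronan, at 594 ± 102 CPM in sham and 557 ± 83.6 CPM in pMCAO (SD, n = 5 each). Itgav had a log2 fold change of 0.59 (unadjusted p = 0.0137, FDR 0.922 in edgeR's test).

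Of 11 transcription factors of the monocyte line, 7 had lower and 4 higher fitted values, with a median of −0.077, 0 called and 0 with an unadjusted p under 0.05. Spi1, which encodes PU.1, was at 114 ± 16.8 CPM in sham and 108 ± 11.9 CPM in pMCAO, and Irf8 at 205 ± 46.2 CPM in sham and 215 ± 39.7 CPM in pMCAO (SD, n = 5 each). The levels of both differed by less than the spread between replicates. Of 10 genes of nonclassical monocytes 6 were lower and 4 higher with 0 called and 3 with an unadjusted p under 0.05, and Cd36, the highest in CPM over all 10 libraries though not in the sham group, was at 129 ± 89.7 CPM in sham and 177 ± 140.2 CPM in pMCAO, with a log2 fold change of 0.46 that was −0.15 without pMCAO replicate 4.

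Interferon-stimulated genes, which monocytes transcribe readily, had lower fitted values after pMCAO in 18 of 18 genes, with a median log2 fold change of −0.53, 0 called, 6 with an unadjusted p under 0.05 and 1, Ifit1, without overlap between the groups. Ifi27l2a, the highest in CPM, was at 184 ± 52.4 CPM in sham and 82.7 ± 24.8 CPM in pMCAO (log2 fold change −1.16, FDR 0.922 by edgeR's test). The correlation of the list's sum with the members ran from −0.18 for Ly6c2 to 0.564 for Vcan, with no adjusted p of at most 0.05.

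The windows around the starts of the members' transcripts (RefSeq, GRCm38.p6, 300 bases each, most of them before the start) were searched on both strands for the site GAGGAAGT, an extended form of the sequence that PU.1 binds, and for its shorter core GGAAGT, which every GAGGAAGT contains. Windows were found for 6 of the 7 members, 9 in all, with none for Fn1. GAGGAAGT occurred in windows of 2 members, in both windows of Ly6c2, which largely overlap, and in the second but not the first window of F13a1. Of 32851 mouse windows of the same length 3.2% hold it. GGAAGT also occurred in Ms4a4c (23.8% of all windows). These shares are per window and not per gene, so they are not a like comparison for a count of members. The windows of Ly6c2 and F13a1 are shown because these genes ran apart over the libraries and both held the longer site. Capitals mark GAGGAAGT and, in F13a1, a further GGAAGT, and both sequences are written along the minus strand, 5′ to 3′. The Ly6c2 window is chr15:75111922-75112221 and the F13a1 window is chr13:37049164-37049463, the second of 2 annotated starts.
Ly6c2: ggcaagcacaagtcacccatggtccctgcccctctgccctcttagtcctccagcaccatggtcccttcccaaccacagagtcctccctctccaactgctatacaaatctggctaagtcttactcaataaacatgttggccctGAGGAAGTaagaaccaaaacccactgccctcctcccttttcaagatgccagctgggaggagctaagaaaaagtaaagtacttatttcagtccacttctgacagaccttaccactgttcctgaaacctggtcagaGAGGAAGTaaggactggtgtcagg
F13a1: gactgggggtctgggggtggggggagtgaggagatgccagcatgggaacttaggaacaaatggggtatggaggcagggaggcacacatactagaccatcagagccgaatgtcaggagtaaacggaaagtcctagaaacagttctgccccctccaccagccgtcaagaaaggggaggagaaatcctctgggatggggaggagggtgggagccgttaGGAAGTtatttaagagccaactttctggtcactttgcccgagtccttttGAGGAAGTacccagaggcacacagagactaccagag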

How the data were processed

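The counts deposited by the authors are raw whole numbers of reads per gene and library. The labels name STAR, featureCounts, limma and the build GRCm38 (mm10), without versions, and RNA sequencing of paired-end 100-base reads after removal of ribosomal RNA. The table also holds CPM that the authors scaled to the total of the listed genes, and a log2 fold change, mean expression, p and FDR of their own comparison, and none of these was used. Genes were filtered with filterByExpr (16949 of 17279 kept), scaled by TMM and tested two-sided in edgeR 4.0.16 (quasi-likelihood, R 4.3.3), 5 sham against 5 pMCAO libraries with no covariate, with Benjamini-Hochberg adjustment and calls at an FDR of at most 0.05. Log2 CPM used a prior count of 2, and correlations used 100000 resamples (scipy 1.17.1), two-sided. The smallest total, 6430643 counts, sets the precision for weak genes. The labels number biological replicates but do not say whether each is 1 mouse. No library was a repeat of another (chi-square per degree of freedom at least 37.6).

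The named genes were the 7 members, up to 4 most abundant genes or the defining markers of each list, near paralogs, and the 5 genes most like the mean of the members. Others were named after their values were seen. The members and gene lists were chosen with earlier results of these data known. Besides those in the text, lists of Ly6 paralogs, eosinophils, dendritic cells, plasmacytoid dendritic cells, B and plasma cells, fibroblasts, endothelium and epithelium were counted, with 0 genes called in each. Alternatives were DESeq2 1.42.0, limma-voom with and without quality weights (limma 3.58.1), other scalings and filters, a replicate block, 1 surrogate variable (sva 3.50.0) and libraries left out. Leaving libraries out of the gene lists, and the order of members within libraries, were added after the data were seen. Sequences come from RefSeq and GENCODE M21. A further gene is not reported here.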

Additional observations from a re-analysis of the deposited data

Results flagged for a closer look

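The summed level of the 7 members stood apart from its own group in 1 library, though that of sham replicate 4 was lower, at 802 CPM. In pMCAO replicate 3 it was 838 CPM, and its gap to the nearest pMCAO library was 0.726 of the range of that group on the log2 scale, above the critical value of 0.71 for 5 libraries. Of 20 groups of 5 libraries checked in this way, 1 passed, where 1 would by chance. This library was also the lowest pMCAO library for Ly6c2 (2.93 CPM) and Vcan (1.21 CPM), its immunoglobulin share was 0.938% and its resident macrophage list summed to 1033 CPM. The cause was not tested.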

How the results depend on the processing

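No member was called under any of the 22 alternatives to the edgeR fit, and the smallest FDR of a member over these was 0.373 (Plac8 and Vcan, limma-voom with sample quality weights). Plac8, Vcan and Ms4a4c were lower and F13a1 higher in every one of them. The log2 fold change of Ly6c2 (0.049) turned to −0.052 with limma-voom, to −0.32 with sample quality weights and to −0.40 with the replicate block, and that of Ccr2 (0.14) to −0.031 without both pooled libraries. With single libraries left out, the ranges were −0.92 to 0.61 for Ly6c2, −0.032 to 0.45 for Ccr2, −1.38 to −0.74 for Plac8, −0.50 to 0.16 for Fn1, −1.98 to −1.0 for Vcan, 0.30 to 1.57 for F13a1 and −0.60 to −0.24 for Ms4a4c. The median of the members was 0.16 without sham replicate 2. DESeq2 called 3 genes and had 1022 with an unadjusted p under 0.05, where edgeR called 0 and had 799, and the count at that p was from 462 to 1888 over the other alternatives. The cause was not tested.

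Same-numbered libraries correlated by 0.197 on average in their deviations from the group means, with 3 of 5 pairs over 0.1 and 2 of 5 libraries closest to their own number. The r was 0.341 for replicate 2 and 0.372 for replicate 5. These values do not settle whether the numbers pair the libraries, and the labels do not say so, so the main fit left the numbers out. The replicate block left the count of called genes at 0 and brought that at an unadjusted p under 0.05 to 1303. The smallest FDR over all genes was then 0.173. In edgeR's test with the block, Plac8 had a log2 fold change of −1.11 (unadjusted p = 0.00063, FDR 0.565). Vcan had −1.77 (unadjusted p = 0.0106, FDR 0.629). Depth limits Vcan most, which had as few as 12 counts in a library.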
